A study of Mus musculus with 6 samples.

Results

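Negative feedback genes of MAP kinase signalling, 10 in number, were followed in cultured mouse vascular smooth muscle cells labelled as knockout for the nuclear receptor corepressor gene Ncor1. They were chosen by symbol: the dual-specificity phosphatases Dusp1, Dusp4, Dusp5 and Dusp6, the Sprouty genes Spry1, Spry2 and Spry4, the Spred genes Spred1 and Spred2, and Errfi1. All 10 were present among the 44792 genes of the count table, and all 10 were among the 13323 genes expressed enough to be tested. The knockout (KO) group was 3 libraries with the genotype Ncor1-/-, from mice with a smooth muscle deletion of Ncor1. It was set against 3 wild type (WT) libraries from littermate controls. Both groups were of the C57BL/6 strain, and per the design text the primary cells were exposed to 4-OHT, the tamoxifen metabolite that sets off the deletion. The labels do not name the Cre driver. The design text mentions 3 mice per group and also technical replicates, so every p-value measures library-to-library spread, which may be purely technical.

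The ERK pathway carries signals from growth factor receptors through RAS, RAF and MEK to the ERK kinases. Active ERK switches on genes whose products then damp the same pathway. Dual-specificity phosphatases remove the activating phosphates from MAP kinases, Sprouty and Spred proteins restrain the steps around RAS and RAF, and the Errfi1 product, also called MIG6, inhibits the EGF receptor. In smooth muscle cells, growth factor signalling through this pathway goes with proliferation and loss of the contractile state.

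Libraries held 7125538 to 9579490 counts in KO and 7231968 to 9005690 in WT, and members had 69 to 880 counts per library. Ncor1 itself stood at 93.7 to 99.3 CPM in KO and 213 to 230 CPM in WT, where CPM are counts scaled to the library size with TMM factors (log2 fold change -1.21, SE 0.0445, adjusted p = 1.08e-33). The Ncor1 level in KO was thus 0.43 of that in WT, and the source of the remaining reads was not tested. Fold changes below are KO over WT on the log2 scale, given with their standard error (SE). Adjusted p-values are those of the edgeR quasi-likelihood test over all genes tested, and a gene was called at 0.05. Expression differed widely: 26.4% of tested genes were called higher in KO and 26.2% lower, and in 57.8% the KO and WT values did not overlap. These were 3512 genes higher and 3492 lower, and with library totals alone as the scaling 5305 were higher and 2405 lower. Smooth muscle markers summed to 3929 to 4133 CPM in KO and 11629 to 11844 CPM in WT, with 9 of 10 lower. All 12 endothelial markers rose (list median 1.76; Plvap 2.61) and summed to 6788 to 6947 CPM in KO and 1894 to 1966 CPM in WT. Of 11 macrophage markers 10 rose (list median 3.57), with sums of 555 to 606 CPM in KO and 47.6 to 66.1 CPM in WT. None of these markers was at 0 in every library of a group. Of 8 adventitial fibroblast markers 3 were tested, with 2 higher and 1 lower (median 1.78, but -0.64 without the low-count filter). They summed to 1062 to 1130 CPM in KO and 246 to 275 CPM in WT, mostly from Cd34, which endothelial cells also express, and Dcn, which rose by 3.62 to 321 ± 7.60 CPM in KO against 26.1 ± 2.61 CPM in WT. The fibroblast marker Dpt was at 0 in all KO libraries, and Pdgfra, the third tested, fell by 1.29; both were named after their values were seen. The part of all these cell types in the changes described below was not tested, and in bulk RNA a change in the number of cells of a type cannot be told apart from a change in RNA per cell.

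Among the members, Dusp1, Dusp4, Dusp6, Errfi1 and Spry2 rose in KO cells, Spry1 and Dusp5 fell, and Spry4, Spred1 and Spred2 did not pass the test. That makes 5 of 10 higher beside 26.4% of all tested genes, 2 of 10 lower beside 26.2%, and 7 of 10 called in either direction beside 52.6%. With library totals alone 6 members were higher and 1 was lower. The median member stood at 0.27 on the log2 scale, against -0.0039 for all genes tested. KO and WT values did not overlap in 8 of 10 members, beside 57.8% of tested genes. In 6 of them KO was above WT (29% of tested genes), and in 2 below (28.8%). The increases reached 2.53-fold in Dusp6, whose change was exceeded in size by 8.9% of tested genes, and the decrease of Spry1 was exceeded by 7.69%.

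**Figure D1:**
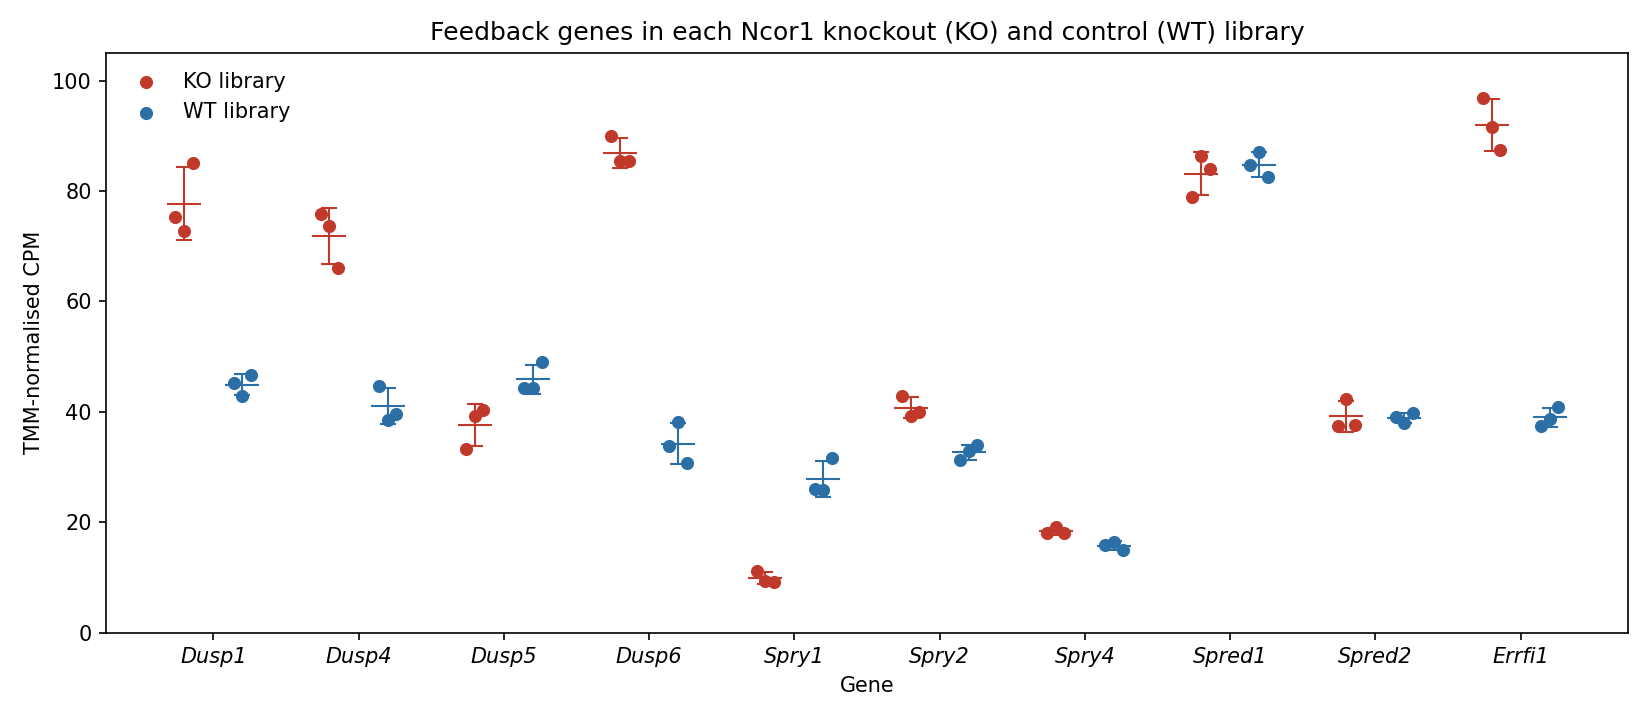
TMM-normalised CPM of the 10 feedback genes (horizontal axis) in each library, with KO in red left of WT in blue. Points are libraries, and bars are the mean and SD of 3. Dusp6 and Errfi1 lie at 85.4 to 96.8 CPM in KO and at 30.7 to 40.8 CPM in WT, while Spry1 is the member whose KO libraries sit far below WT.

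Dusp6 encodes the cytoplasmic phosphatase MKP-3, which is selective for ERK. It had 90.0, 85.4 and 85.4 CPM in KO libraries 1 to 3, against 33.9, 38.1 and 30.7 CPM in WT libraries 1 to 3. All 3 KO libraries lay above all 3 WT libraries, with means of 86.9 ± 2.69 CPM in KO and 34.2 ± 3.70 CPM in WT (SD, n = 3 each). The log2 fold change was 1.34 (SE 0.0664, adjusted p = 6.16e-27). It lay between 1.27 and 1.47 over the 18 alternative analyses tried.

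Dusp1, Dusp4 and Dusp5 encode inducible phosphatases of the nucleus. Dusp1, or MKP-1, acts on p38 and JNK as well as ERK, and Dusp5 is selective for ERK. Dusp1 stood at 75.3, 72.7 and 85.2 CPM in KO and at 45.2, 42.8 and 46.6 CPM in WT. KO library 3 was the highest of its group, and the groups did not overlap. The increase was 1.74-fold (log2 fold change 0.80, SE 0.0648, adjusted p = 4.52e-17). Dusp4, or MKP-2, had 75.8, 73.6 and 66.1 CPM in KO and 44.7, 38.6 and 39.6 CPM in WT, again without overlap. Its increase was of the same size, 1.74-fold (log2 fold change 0.80, SE 0.0674, adjusted p = 2.88e-16).

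Dusp5 went the other way. It measured 33.3, 39.3 and 40.2 CPM in KO, against 44.2, 44.4 and 49.0 CPM in WT, so that each KO library was below each WT library. The log2 fold change was -0.28 (SE 0.0744, 95% interval -0.42 to -0.13, adjusted p = 0.00129), with 46.6% of tested genes changing more. This call depended on scaling: with library totals alone, which shift the median of all genes by 0.13, Dusp5 was at -0.14 (adjusted p = 0.0958), and it was not called on the FPKM scale either. The counts of 2 genes in the same library need no scaling between libraries. The Dusp6 to Dusp5 count ratio was 2.70, 2.17 and 2.12 in KO and 0.766, 0.858 and 0.627 in WT. The Dusp4 to Dusp5 ratio was 2.28, 1.87 and 1.64 in KO and 1.01, 0.870 and 0.809 in WT. Dusp1 to Dusp5 gave 2.26, 1.85 and 2.12 in KO and 1.02, 0.965 and 0.952 in WT. These pairs were picked after the values were seen and carry no test. Their upper genes were the ones that rose, so the ratios describe the pairs and say nothing of Dusp5 alone.

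Promoter stretches of Dusp1, which rose, and Dusp5, which fell, are shown because each holds a sequence motif found in few promoters. The RefSeq table for build GRCm38.p6 had entries for 8 of the 10 members. Windows of 250 bases before to 50 after a transcription start were searched on both strands for the cAMP response element TGACGTCA, which reads alike on both strands, the AP-1 site TGANTCA, the ETS site CCGGAA and the CArG box. None of these motifs overlapped another in the members. The motifs were chosen after the values were seen. The 150 bases before each start are printed 5′ to 3′ on the gene's strand, with the match in capitals.
Dusp1: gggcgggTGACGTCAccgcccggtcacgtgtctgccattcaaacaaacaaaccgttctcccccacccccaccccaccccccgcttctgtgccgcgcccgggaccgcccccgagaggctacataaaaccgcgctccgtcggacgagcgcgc
Dusp5: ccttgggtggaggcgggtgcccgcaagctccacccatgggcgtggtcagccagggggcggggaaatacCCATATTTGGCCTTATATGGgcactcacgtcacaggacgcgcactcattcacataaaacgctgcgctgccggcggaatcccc
The Dusp1 stretch lies at chr17:26508473-26508622 on the minus strand, and its cAMP response element, the capitals above, begins 143 bases before the start. This element occurs in 1.79% of the 32851 windows listed there. The Dusp5 stretch lies at chr19:53528995-53529144 on the plus strand. Its capitals are 2 adjoining CArG boxes, beginning 82 and 72 bases before the start. A CArG box, the sequence recognised by serum response factor, occurs in 1.63% of the windows. In the Dusp6 window none of the 4 motifs was found. A match describes these letters and does not show a site in use.

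Seen per gene length, the make-up of the phosphatase transcripts differed between the groups. FPKM, the authors' length-scaled values, summed over Dusp1, Dusp4, Dusp5 and Dusp6 to 137, 138 and 143 in KO and to 87.8, 86.3 and 88.6 in WT. Dusp5 made up 22.0%, 25.7% and 25.5% of that sum in KO, against 41.6%, 42.7% and 45.2% in WT. Dusp6 made up 22.4% to 24.6% in KO and 11.7% to 15.1% in WT. In WT cells Dusp5 was the most abundant member by FPKM (37.8 ± 1.98), ahead of Dusp1 (22.0 ± 0.797) and Dusp4 (16.1 ± 1.29), with no overlap between these neighbours. Such orders and shares rest on the gene lengths behind the FPKM, which are not known here. The WT counts of Dusp5 (335 to 380) and Dusp1 (319 to 388) overlapped. In KO cells Dusp1 led at 41.8 ± 3.73 FPKM. It was followed by Dusp5 (34.0 ± 3.50), Dusp6 (32.5 ± 0.923), Dusp4 (30.9 ± 2.06) and Errfi1 (30.5 ± 1.43), whose neighbours in this order overlapped from Dusp5 down to Errfi1.

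The Sprouty genes diverged. Spry1 had the strongest decrease of the members, with 11.2, 9.29 and 9.24 CPM in KO and 26.0, 25.9 and 31.6 CPM in WT. Every KO library was below every WT library, and the level was 2.79-fold lower in KO (log2 fold change -1.48, SE 0.114, adjusted p = 5.5e-18). Over the alternative analyses the value ran from -1.57 to -1.17. Spry2 measured 42.9, 39.3 and 39.9 CPM in KO and 31.2, 32.8 and 33.9 CPM in WT, without overlap. Its increase was 1.25-fold (log2 fold change 0.32, SE 0.0757, adjusted p = 2.47e-04). Both proteins act on the same stretch of the pathway between receptor and RAF.

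Spry4 had 18.0, 19.1 and 18.0 CPM in KO and 15.8, 16.5 and 14.9 CPM in WT. Here too the KO libraries were above the WT libraries, but the difference did not pass the test (log2 fold change 0.22, SE 0.108, 95% interval 0.00053 to 0.43, adjusted p = 0.0868). With library totals alone it did (0.35, adjusted p = 0.00437), as it did on the FPKM scale. Without any one library the adjusted p stayed between 0.09 and 0.202.

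Within each library, the Spry2 to Spry1 count ratio was 3.82, 4.23 and 4.32 in KO and 1.20, 1.27 and 1.07 in WT, and Spry4 to Spry1 was 1.60, 2.06 and 1.95 in KO and 0.610, 0.637 and 0.472 in WT. Neither pair of groups overlapped, and both pairs of genes were picked after the values were seen. Summed over the 3 Sprouty genes, FPKM came to 27.6 to 29.9 in KO and 27.3 to 30.2 in WT, so on the FPKM scale the sums overlapped. Spry1 accounted for 15.7%, 14.1% and 14.0% of the Sprouty FPKM in KO and 36.5%, 35.3% and 39.7% in WT. Spry2 accounted for 70.6%, 70.1% and 71.2% in KO and 51.5%, 52.5% and 50.1% in WT. As TMM-scaled CPM, which are not divided by gene length, the Sprouty sum was 67.2 to 72.1 in KO and 73.0 to 80.4 in WT. On this scale the KO sums lay below the WT sums without overlap. These scales also differ in library scaling. FPKM use library totals, while the TMM factors were 1.04 to 1.05 in KO and 0.948 to 0.961 in WT. The contrast between the sums is thus not one of length alone. By FPKM, Spry4 (4.18 ± 0.140) and Spry1 (4.16 ± 0.465) were the lowest members in KO and overlapped each other. In WT the lowest was Spry4 (3.27 ± 0.184), while Spry1 stood at 10.6 ± 1.18 FPKM and overlapped Dusp6 (11.7 ± 1.34).

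**Figure D2:**
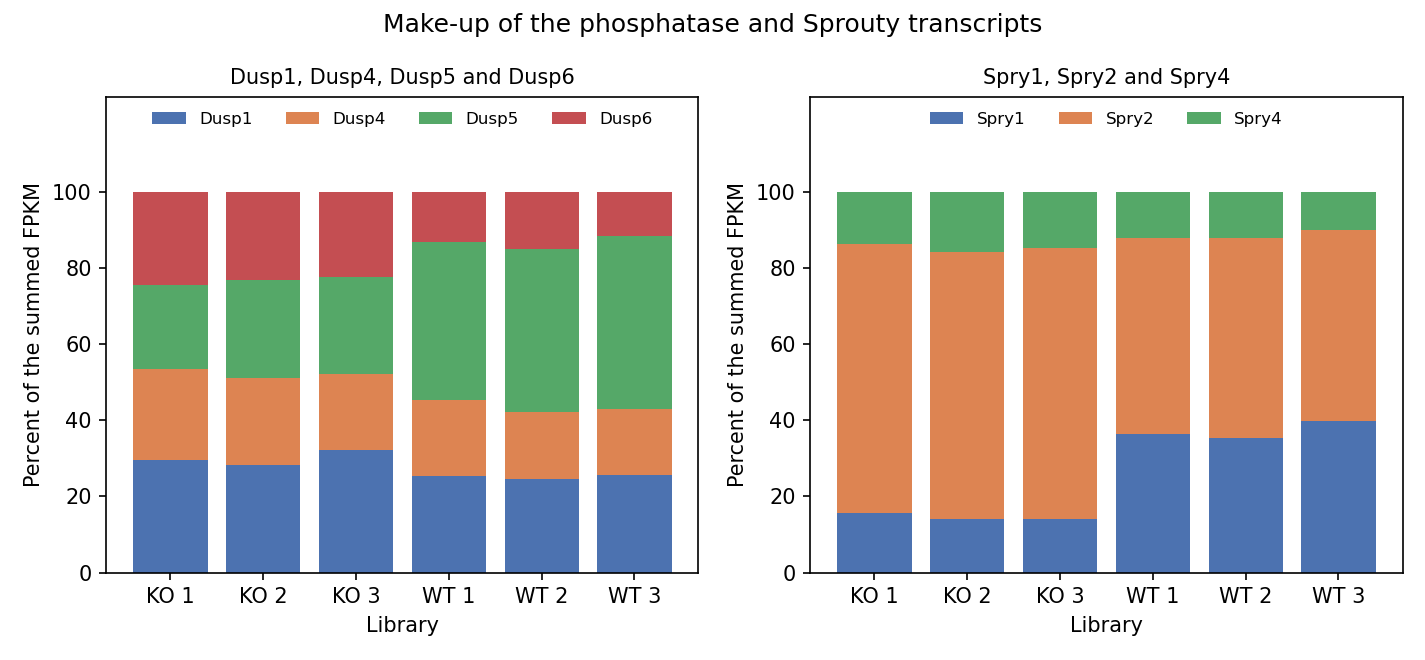
Share of each gene in the summed FPKM of the 4 phosphatase genes (left) and the 3 Sprouty genes (right), in percent, with 1 stacked bar per library and KO left of WT. The Dusp5 part is 22.0% to 25.7% in KO and 41.6% to 45.2% in WT, and the Spry1 part 14.0% to 15.7% in KO and 35.3% to 39.7% in WT.

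The Spred proteins, relatives of Sprouty that carry an EVH1 domain and bring the RAS inhibitor neurofibromin to the membrane, gave overlapping values. Spred1 had 78.9, 86.4 and 84.1 CPM in KO and 84.8, 87.1 and 82.5 CPM in WT. Its log2 fold change was -0.03, with a 95% interval of -0.14 to 0.08 (adjusted p = 0.684). Spred2 had 37.4, 42.4 and 37.7 CPM in KO and 39.1, 38.0 and 39.8 CPM in WT, a log2 fold change of 0.0036 with an interval of -0.14 to 0.15 (adjusted p = 0.974). Both signs turned with the analysis: with library totals alone Spred1 was at 0.10 (adjusted p = 0.095), and with upper-quartile factors Spred2 was at -0.0026. Spred1 took 67.2% to 69.2% of the FPKM of this pair in KO and 67.6% to 69.8% in WT.

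Errfi1 rose nearly as much as Dusp6. The KO libraries had 96.8, 91.7 and 87.4 CPM, against 37.5, 38.7 and 40.8 CPM in WT, and the lowest KO library was above the highest WT library. The increase was 2.36-fold (log2 fold change 1.24, SE 0.0627, adjusted p = 1.79e-26), and 10.01% of tested genes changed more. The count ratio of Errfi1 to Spred1, a pair also picked after the values were seen, was 1.23, 1.06 and 1.04 in KO and 0.442, 0.445 and 0.495 in WT. RefSeq gives 2 starts for Errfi1. The 150 bases before one of them, at chr4:150854920-150855069 on the plus strand of GRCm38.p6, are shown because they hold the same element as the Dusp1 stretch, in capitals, beginning 51 bases before the start.
Errfi1: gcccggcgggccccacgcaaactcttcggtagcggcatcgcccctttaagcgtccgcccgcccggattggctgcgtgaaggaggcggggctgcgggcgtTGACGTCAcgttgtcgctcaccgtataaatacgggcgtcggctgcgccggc
The other Errfi1 start and the windows of Spry1, Spred1 and Spred2 held none of the 4 motifs. The Spry2 window held the ETS site, 33 bases after its start, a motif found in 14.9% of all windows.

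**Figure D3:**
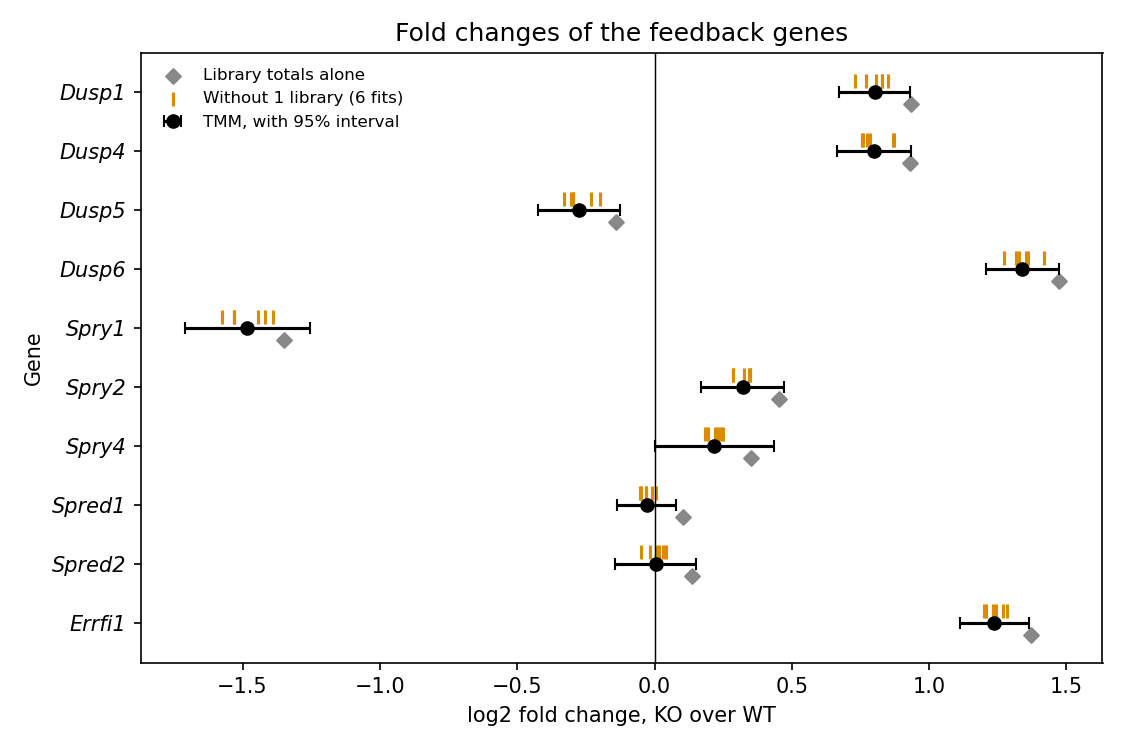
log2 fold change of each member, KO over WT. Black points are the TMM values with 95% intervals, orange ticks the 6 fits that each leave out 1 library, and grey diamonds the values with library totals alone. Dusp1, Dusp4, Dusp6, Errfi1, Spry1 and Spry2 stay on their side of 0 throughout, and Dusp5 keeps its sign but loses its call at -0.14. Spry4 also stays above 0, and of the fits drawn it is called only with library totals alone, at 0.35.

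Other genes of the pathway were counted from 7 lists, chosen with earlier results of these data known. Of their 114 genes 92 were tested: 45 were called higher and 30 lower, and 17 did not reach the threshold. For reading these counts and those of the single lists, 26.4% of all tested genes were called higher, 26.2% lower and 52.6% in either direction. Mapk3, which encodes ERK1, had 199, 219 and 208 CPM in KO and 196, 204 and 216 CPM in WT and the groups overlapped (log2 fold change 0.03, 95% interval -0.06 to 0.11, adjusted p = 0.618). The sign of Mapk3 turned without KO replicate 2 or WT replicate 1. With library totals alone it was called higher, at 0.16, close to the 0.13 by which that scaling shifts the median gene. It was also called with limma-trend on log2(FPKM + 1), at 0.16 (adjusted p = 0.025), and on log2(FPKM + 0.1) (adjusted p = 0.0259). In the list of RAF, MEK and ERK kinases and scaffolds 3 of 12 were higher and 4 were lower (median -0.0035), near the shares of all tested genes. With library totals alone the count was 6 higher and 1 lower with a median of 0.13, and without KO replicate 3, or by the DESeq2 test, 2 were lower. Braf fell to 55.2 ± 2.17 CPM in KO, against 95.9 ± 3.85 CPM in WT (-0.80, SE 0.0571). The scaffold gene Ksr1 rose by 0.56 (SE 0.0911), and Iqgap1 fell by 0.19 (SE 0.0327). The Iqgap1 call was lost with library totals alone (adjusted p = 0.108) and with limma-trend on FPKM (adjusted p = 0.16 to 0.183).

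Of the EGF family ligands, which act on the receptor that the Errfi1 product inhibits and on its relatives, 5 of 6 tested genes rose, beside 26.4% of all tested genes, and Nrg4 (-0.16), named after its value was seen, did not pass. The list's median was 1.05, but 0.45 with log2(FPKM + 1) and no low-value filter. Nrg1, encoding the ERBB ligand neuregulin 1, rose by 1.46 (SE 0.05), to 182 ± 4.94 CPM in KO against 66.0 ± 4.95 CPM in WT. Hbegf rose by 1.27 (SE 0.0461) to 214 ± 8.95 CPM in KO, against 88.2 ± 3.84 CPM in WT, and epiregulin, Ereg, by 1.01 (SE 0.0616). The EGF receptor gene Egfr, whose product binds Hbegf and Ereg but not neuregulin 1, had 52.5, 46.8 and 52.9 CPM in KO and 37.4, 35.0 and 39.0 CPM in WT, an increase of 0.46 (SE 0.0715, adjusted p = 1.41e-07) without overlap. The neuregulin receptor genes Erbb3, with 1 to 3 counts per library in KO and 2 to 7 in WT, and Erbb4, with 0 to 1 in KO and 7 to 13 in WT, were too low to be tested. Erbb2, of the same receptor family, fell by 0.32 (SE 0.0678, adjusted p = 6.52e-05) without overlap. It stood at 45.3 ± 3.30 CPM in KO against 56.1 ± 2.96 CPM in WT. Erbb2, Erbb3 and Erbb4 were named after their values were seen.

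Receptor tyrosine kinases went both ways, 7 of 18 higher and 10 lower, and their median of -0.13 became 0.0023 with library totals alone. With log2(FPKM + 1), 6 were lower. The 3 with the smallest adjusted p fell: Pdgfrb, the PDGF receptor of mural cells, to 207 ± 9.84 CPM in KO against 729 ± 11.6 CPM in WT (-1.82, SE 0.0365), the FGF receptor gene Fgfr2 by 2.17 (SE 0.0512), and the collagen receptor gene Ddr2 by 1.36 (SE 0.0404). Among the genes that rose were Kdr (1.77) and Flt4 (2.25), receptors for VEGF in endothelial cells, and Csf1r (2.96), which is also on the macrophage list. Egfr, Kit (1.25), Flt1 (0.92) and Met (0.86) rose too. The further genes that fell were Ntrk3 (-2.67, with 1 to 3 counts per library in KO), Fgfr3 (-2.58), Pdgfra (-1.29), Ddr1 (-0.86), Erbb2 (-0.32), Insr (-0.14) and Axl (-0.08). All but Egfr of the genes that rose, and these further genes that fell, were named after their values were seen. Fgfr1, also named for its values, had 1 to 3 counts per library and was not tested. The gene models behind the counts are not known here, and whether low expression or the counting gave this value was not tested.

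Adaptors, exchange factors and RAS GTPases held 8 of 17 genes higher and 6 lower (median -0.00091, and 0.13 with library totals alone), and with log2(FPKM + 1) 3 were lower. Rasgrp3, a RAS exchange factor activated by diacylglycerol, rose to 269 ± 3.28 CPM in KO against 88.3 ± 1.23 CPM in WT (1.61, SE 0.0429). Mras fell by 0.81 (SE 0.0674) and Frs2, the adaptor of FGF receptors, by 0.79 (SE 0.0533). RAS GTPase-activating proteins, which switch RAS off, had 1 of 7 higher and 5 lower (median -0.42, but -0.29 with library totals alone, -0.20 with log2(FPKM + 1) and -0.10 with that and no filter). Rasa3 fell by 0.55 (SE 0.046), Dab2ip by 0.42 (SE 0.0405) and Rasal2 by 0.27 (SE 0.0463), the last of which lost its call on the FPKM scale. With FPKM and a pseudocount of 1, 3 members of this list were lower.

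The remaining dual-specificity phosphatases and Sprouty relatives had 6 of 10 genes higher and 1 lower (median 0.54). Their median was 0.68 with library totals alone and 0.39 with log2(FPKM + 1) and no filter, where no gene of the list was called lower. Spred3, the third Spred gene, rose to 53.1 ± 1.04 CPM in KO against 23.4 ± 0.545 CPM in WT (1.18, SE 0.076). Dusp16, a phosphatase of JNK and p38, rose by 0.96 (SE 0.071), and Dusp3 by 0.63 (SE 0.0553). The member that fell was Dusp8 (-0.35, SE 0.0914), and Dusp7 (-0.07), which like Dusp6 encodes a cytoplasmic ERK phosphatase, did not pass. Both were named after their values were seen.

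Of the early and delayed genes that ERK induces, 15 of 22 rose, beside 26.4% of all tested genes, and 4 fell, beside 26.2%, with a median of 0.85 beside -0.0039 for all tested genes. Hmga2, a chromatin protein, rose to 308 ± 10.8 CPM in KO against 91.0 ± 2.35 CPM in WT (1.76, SE 0.043). Cyclooxygenase 2, Ptgs2, rose by 1.39 (SE 0.0379) and cyclin D1, Ccnd1, by 0.95 (SE 0.0323). The 4 that fell, named after their values were seen, were Phlda1 (-0.99), Egr1 (-0.57), Egr2 (-1.33) and Egr3 (-0.59). Without WT replicate 2, or with library totals alone, 2 of the list were lower. The list was chosen with earlier results of these data known, so its counts and median are descriptive. Induction by ERK is background knowledge for these genes, and ERK activity was not measured here.

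**Figure D4:**
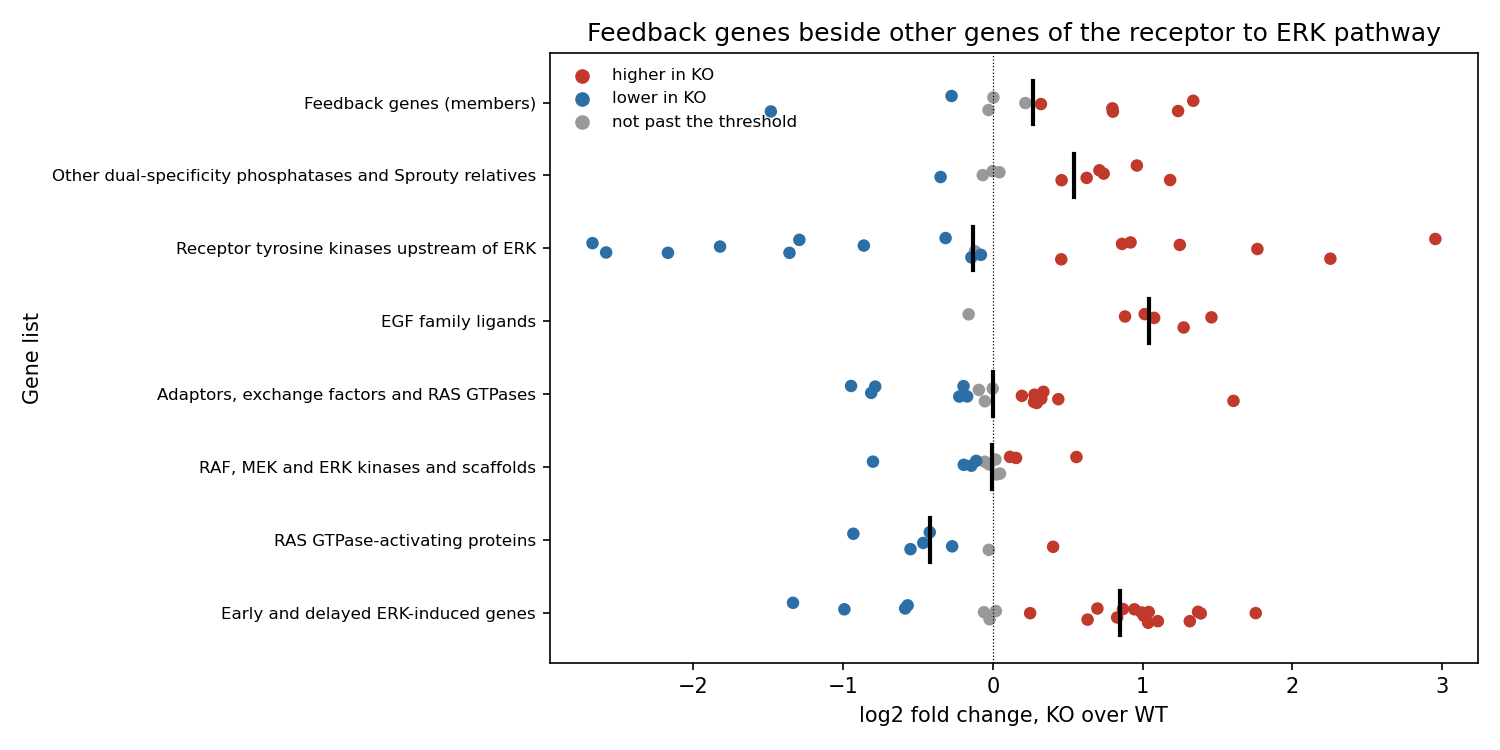
log2 fold change, KO over WT, of every tested gene in the member list and the 7 pathway lists, 1 row per list. Points are genes, red if higher and blue if lower in KO, grey if not past the threshold, and the black bar is the list's median, which runs from -0.42 for RAS GTPase-activating proteins to 1.05 for EGF family ligands.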

How the data were processed

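Per the labels' protocols, Trizol was used for total RNA, and sequencing libraries were made by Illumina's standard procedure. The submitters' processing notes list HISAT2 2.0 and mm9. Counting tool, annotation and strand setting were not given in the sources used here. Counts deposited by the authors are whole numbers per gene symbol, not normalized, and the FPKM deposited by the authors are scaled to gene length and library total. FPKM were used for levels between genes and as an alternative unit.

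Counts entered edgeR 4.0.16 (R 4.3.3) with filterByExpr, TMM factors, robust dispersions and the quasi-likelihood test, without a replicate term. P-values are two-sided and adjusted by Benjamini-Hochberg over 13323 genes with a threshold of 0.05. Intervals are 95% and use the SE, the log2 fold change over the square root of F. The script was tested on simulated counts. Depth was 7125538 to 9579490 counts per library. Counts of libraries from the same group varied beyond sampling noise (chi-square per degree of freedom 1.38 to 1.85), so none was treated as deposited double. That spread was small, with a common coefficient of variation of 3.05% beyond sampling noise, and may be purely technical.

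Members, gene lists and motifs were chosen with earlier results of these data known. Named genes were all members, Ncor1, Mapk3, Egfr, a gene that is not reported here, and up to 3 called genes with the smallest adjusted p per pathway list (2 per marker list, of which Plvap, Dcn and Cd34 are printed). Genes outside this rule are marked. Of the 114 pathway genes 1 and of the 12 macrophage markers 1 matched no symbol as written and were not analysed here.

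Alternatives were DESeq2 size factors, upper-quartile factors and library totals alone; dropping the low-count filter, or asking for 1 CPM or more in 3 libraries; the Wald test of DESeq2 1.42.0, limma-voom (limma 3.58.1) and edgeR without robust steps; limma-trend on FPKM with a pseudocount of 1 or 0.1 where 3 libraries reached 1 FPKM, and with a pseudocount of 1 unfiltered; each library left out in turn; and the replicate number as a block. FPKM fold changes are on the log2(value + pseudocount) scale, which makes those of low genes too small.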

Additional observations from a re-analysis of the deposited data

How the results depend on the processing

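Dusp1, Dusp4, Dusp6, Errfi1, Spry1 and Spry2 kept their direction and their call in all 18 alternatives, and Dusp5 and Spry4 in 14 each. The exceptions were the fits scaled by library totals. With library totals alone 5305 genes were higher and 2405 lower, and 6 members were higher and 1 lower; the lower genes were 2004 with log2(FPKM + 1), 1987 with log2(FPKM + 0.1) and 2130 with log2(FPKM + 1) and no filter, each with 1 member lower. Dusp5 was at -0.14, -0.15, -0.16 and -0.15 in these 4 fits. Spred1 turned to 0.10 with library totals alone and with log2(FPKM + 0.1), to 0.097 with log2(FPKM + 1) filtered or not, and ran from -0.051 to 0.0059 when 1 library was left out, turning without KO replicate 1. Spred2 turned to -0.0026 with upper-quartile factors and ran from -0.048 to 0.041 with 1 library left out, turning without KO replicate 2 or WT replicate 2. With 1 library left out Mapk3 ran from -0.0087 to 0.062, turning without KO replicate 2 or WT replicate 1. None of these turned values was called. The cause was not tested beyond the 0.13 shift of the median gene. Leaving out 1 library gave 3224 to 3381 genes higher and 3186 to 3342 lower, and 5 members higher and 2 lower each time. Deviations of same-numbered libraries were barely correlated (0.00398, 0.0159 and 0.0232). KO 2 and KO 3 correlated best with their own number, and KO 1 with another. Values this small cannot decide whether the numbers pair the libraries. With the replicate block 3509 genes were higher and 3486 lower, with 5 members higher and 2 lower. Depth limits Spry4 and Spry1 most, with as few as 102 and 69 counts in a library.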
